A study of Homo sapiens with 6 samples.

Results

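Box C/D small nucleolar RNAs (snoRNAs) were followed in NB4 cells after 6 h of arsenic trioxide. They were taken from the deposited expression table as the rows whose symbol begins with SNORD and a number and whose mean over the 6 libraries was at least 1 RPKM (reads per kilobase of exon, scaled to library size). This gave 63 of the 64 SNORD rows and 63 of all 23858 rows. They were thus chosen by their mean level over all libraries, a rule that does not use the treatment. The group itself was chosen with earlier results of these data known. Shares of members set beside those of all genes are therefore a description only. NB4 is a cell line of acute promyelocytic leukaemia that carries the PML-RARA fusion, the protein that arsenic trioxide is known to degrade. The treated group held 3 libraries of NB4 cells given arsenic trioxide for 6 h, and the control group held 3 libraries of NB4 cells of the same line without it. The sources used here state neither the dose nor whether replicates came from separate cultures, so each p-value reflects spread among these libraries, which may be technical. Both groups come from 1 line, and in bulk RNA fewer cells of a kind and less RNA per cell cannot be told apart.

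Box C/D snoRNAs are short nucleolar RNAs named for their C box near the 5′ end and D box near the 3′ end. Bound by the proteins SNU13, NOP56, NOP58 and the methyltransferase fibrillarin, they base pair with ribosomal RNA (rRNA) and direct ribose methylation, while a few, such as the U3 and U14 families, are needed for cutting the rRNA precursor. In human cells most lie in introns of host genes and are released when the intron is spliced out, debranched and trimmed, and many hosts encode ribosomal proteins, nucleolar proteins or noncoding RNAs.

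The annotated sequences of the members that the results turn on come from the GENCODE 29 transcripts (GRCh38). They were chosen after their values were seen, to show the call with the largest fall, pairs that share a host, and copies of one snoRNA in hosts that moved in different ways. All are written 5′ to 3′ as they would be transcribed, with T for U. Capitals mark the C-box core TGATG, read in the first 20 bases, and the D box CTGA, read in the last 20 bases, on the transcript strand. The first pair, SNORD63 (chr5:138561043-138561110) and SNORD63B (chr5:138558970-138559039), lies on the minus strand in HSPA9 and shared 71.2% of its aligned bases.
SNORD63: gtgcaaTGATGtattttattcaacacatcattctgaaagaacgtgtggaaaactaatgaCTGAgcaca
SNORD63B: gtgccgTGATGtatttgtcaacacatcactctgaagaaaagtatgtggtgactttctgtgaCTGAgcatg
SNORD14A (chr11:17074654-17074744, minus strand, in RPS13) and SNORD14E (chr11:123058077-123058161, minus strand, in HSPA8) are copies of U14 that shared 77.4% of aligned bases.
SNORD14A: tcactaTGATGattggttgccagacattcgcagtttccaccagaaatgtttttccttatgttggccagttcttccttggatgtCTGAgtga
SNORD14E: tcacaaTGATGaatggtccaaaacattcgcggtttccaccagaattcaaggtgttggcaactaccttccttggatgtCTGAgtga
SNORD105 (chr19:10107651-10107735) and SNORD105B (chr19:10109757-10109835), on the plus strand in PPAN, shared 67.4%.
SNORD105: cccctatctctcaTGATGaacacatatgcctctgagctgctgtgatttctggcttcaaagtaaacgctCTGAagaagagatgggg
SNORD105B: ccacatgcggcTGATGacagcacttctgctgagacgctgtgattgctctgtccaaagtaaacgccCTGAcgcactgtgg
SNORD12B (chr20:49280319-49280409) and SNORD12C (chr20:49278940-49279028), on the plus strand in the noncoding gene ZFAS1, shared 74.2%.
SNORD12B: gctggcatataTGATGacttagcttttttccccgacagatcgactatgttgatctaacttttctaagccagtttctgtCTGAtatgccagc
SNORD12C: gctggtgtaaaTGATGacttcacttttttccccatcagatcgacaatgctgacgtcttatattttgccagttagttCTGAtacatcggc
SNORD20 (chr2:231456444-231456523, minus strand, in NCL) and SNORD93 (chr7:22856613-22856686, plus strand, in SNHG26) are shown as single falls from 2 kinds of host. SNORD93 has no TGATG in the window.
SNORD20: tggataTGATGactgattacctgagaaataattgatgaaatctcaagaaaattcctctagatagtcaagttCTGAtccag
SNORD93: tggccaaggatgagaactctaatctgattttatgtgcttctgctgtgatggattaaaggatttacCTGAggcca

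The label of the group was checked against these boxes. Both were found in 43 of the 63 members (68.3%), against 80.2% of 278 annotated SNORD genes and 0% of 149 annotated SNORA transcripts, the other snoRNA class. RefSeq (GRCh38.p14) places a box C/D snoRNA gene at 54 of the member loci, and 42 of these carried both boxes. The other 9 rows carry a snoRNA symbol but have no RefSeq box C/D gene at their position, and 1 of them carried both boxes. These 9 rows are named here with their chromosome, for example SNORD38 on chromosome 19, and are marked with an asterisk in the plots. Among the members, 5 symbols cover 11 rows, which are kept apart here. RefSeq names were used where they differ from the deposited symbol, for SNORD63B, SNORD19C, SNORD38C, SNORD65C and SNORD53B.

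Libraries held 19361333 to 22609019 reads counted in genes, as recovered from the deposited values, and 1 read on a snoRNA of the median length of 84 bases was worth 0.527 to 0.615 RPKM. Members averaged 1.6 to 152 RPKM, with a median of 14.3 RPKM. Their mean depth was 3.5 to 768 reads per library with a median of 28.5 reads, against 335 reads for all genes tested, and 13 members had a mean under 10 reads. RNA was extracted on RNeasy Mini columns, which are known to retain short RNA poorly, so levels here do not measure the true abundance of mature snoRNAs. A read inside a snoRNA can come from the mature RNA or from an unspliced host transcript, and the kit does not mark strand, so these sources and genes on the opposite strand cannot be told apart. Members just inside the level threshold were SNORD91A at 1.6, SNORD56B at 2.32 and SNORD124 at 2.63 mean RPKM. The single SNORD row outside it was SNORD3B-1, with 0.355, 0.934 and 0.66 RPKM in arsenic trioxide libraries and 0.718, 0.545 and 0.35 RPKM in control libraries.

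The question asked of the 2 groups was whether snoRNA levels differed after arsenic trioxide. On log2(RPKM + 1), 18 of 63 members (28.6%) were called lower in arsenic trioxide libraries, where 13.4% of the 16803 genes tested were called lower. Just 3 members (4.76%) were called higher, where 12.0% of genes tested were, and 42 were not called. Calls are Benjamini-Hochberg adjusted p under 0.05 over all genes tested, from limma in its trend mode. The log2 fold change was below 0 in 51 members (81.0%) and in 50.3% of genes tested. Its median was -0.42 over the members, a ratio of 0.746, with quartiles of -0.77 and -0.16, and -0.0033 over all genes. The scale of log2(RPKM + 1) understates the change of low members.

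Arsenic trioxide libraries lay wholly below control libraries in 23 members (36.5%), against 22.6% of genes tested, and wholly above in 3 (4.76%), against 21.9%. A model of the recovered reads themselves, limma-voom, called 7 of 63 members lower, where 16.3% of genes were called, and 2 higher, where 14.9% were. Both are smaller shares than among all genes tested, unlike the lower calls on the RPKM scale. All 9 were among the 21 calls on the RPKM scale. The authors' deposited table has an adjusted p under 0.05 for 6 lower members, where 16.0% of genes with a value are lower, and for 2 higher members, where 13.4% are higher. Both are again smaller shares of the members than of the genes with a value. All 8 members were also called here. Leaving out each library in turn kept the call of 10 of the 18 lower members and of 2 of the 3 higher ones in all 6 fits.

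**Figure D1:**
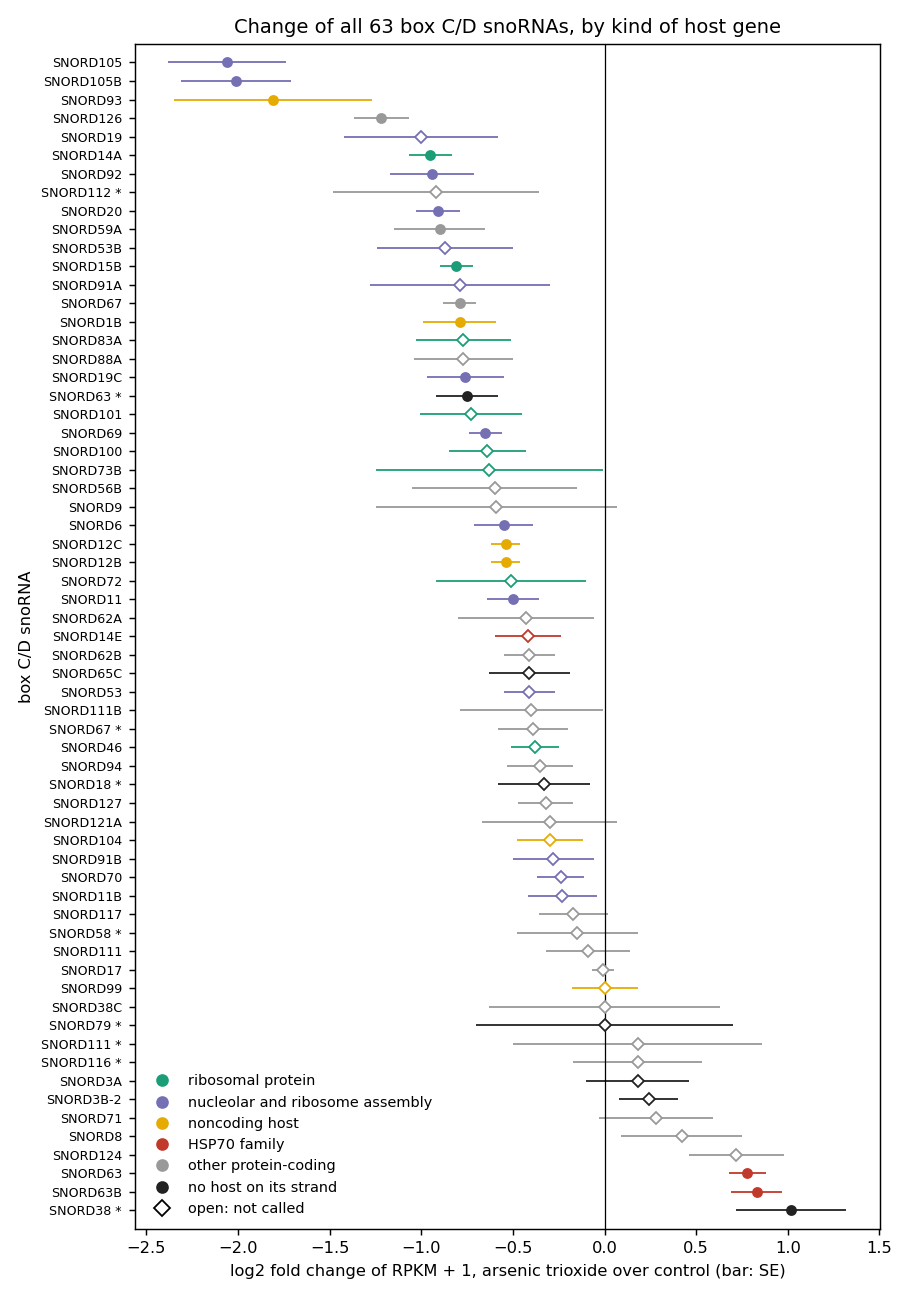
Log2 fold change of RPKM + 1 (x axis, arsenic trioxide over control, bar: SE) for each of the 63 box C/D snoRNAs (y axis), coloured by kind of host gene, with filled circles for the 21 called members and open diamonds for the 42 others. The values run from -2.06 for SNORD105 to 1.02 for SNORD38 on chromosome 19 (an asterisk marks the 9 rows with no RefSeq box C/D gene), and 51 points lie left of 0.

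As a share of all counted reads, members took 134, 156 and 141 RPM (reads per 1000000 counted reads) in arsenic trioxide libraries, against 168, 171 and 165 RPM in control libraries. The 3 treated libraries were all lower. The means were 143 ± 11.2 and 168 ± 2.88 RPM (SD, n = 3 each), a log2 difference of -0.23 with an exact two-sided permutation p of 0.1, the smallest that 3 against 3 libraries allow. SNORD17 alone held 23.2% of all member reads. Without SNORD17 the means were 108 RPM in arsenic trioxide and 132 RPM in control libraries, a log2 difference of -0.3.

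SNORD17, which guides methylation of the large subunit rRNA and is the member with the highest RPKM, had 156, 152 and 147 RPKM in arsenic trioxide libraries and 158, 158 and 144 RPKM in control libraries. The groups overlapped, with a log2 fold change of -0.01 ± 0.06 (SE), whose sign changed with the scaling, and a limma adjusted p of 0.903. Its host SNX5, a sorting nexin, fell, with 29.3, 31.3 and 25.2 RPKM in arsenic trioxide libraries and 35.4, 39.0 and 37.8 RPKM in control libraries (log2 fold change -0.38, limma adjusted p 0.0207). That host call was lost without control library 2 (adjusted p 0.0684) or control library 3 (0.0633).

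A listed host gene on the same strand held 56 of the 63 members, 53 in an intron and 3 across an annotated exon. There were 40 distinct hosts, of which 38 had a level high enough to test. Of these, 14 were called lower and 4 higher, where 13.4% and 12.0% of all genes tested were. The count of higher hosts is near that background. The hosts were sorted by the kind of product they encode, a sorting made after values were seen. Each kind is described in turn. Differences between the change of a snoRNA and that of its host were not tested gene by gene.

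Ribosomal protein genes hosted 8 members, and all 8 had a log2 fold change below 0, between -0.95 and -0.38 with a median of -0.68, while none of their 7 hosts was called. Host fold changes lay between -0.27 and 0.08 with a median of -0.03. SNORD15B, which guides methylation of the large subunit rRNA, had 17.5, 17.1 and 20.6 RPKM in arsenic trioxide libraries and 35.3, 32.2 and 31.2 RPKM in control libraries. The groups were far apart. The means were 18.4 ± 1.89 and 32.9 ± 2.12 RPKM (SD, n = 3 each), a log2 fold change of -0.81 ± 0.09 with a limma adjusted p of 0.00159. Its host RPS3 had a log2 fold change of -0.03 (adjusted p 0.765).

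SNORD14A, a copy of U14 that is needed in yeast for making the small subunit rRNA, had 14.3, 19.7 and 19.5 RPKM in arsenic trioxide libraries and 35.9, 34.1 and 35.5 RPKM in control libraries. It fell to 17.8 ± 3.07 RPKM in arsenic trioxide libraries, against 35.1 ± 0.969 RPKM in control libraries (SD, n = 3 each). The log2 fold change was -0.95 ± 0.12 with a limma adjusted p of 0.00266. Host RPS13 had a log2 fold change of -0.06 (adjusted p 0.448). These were the 2 called members of the kind. The other 6 missed the threshold, of which 5 are named here. Log2 fold changes were -0.77 for SNORD83A in RPL3, -0.73 for SNORD101 and -0.64 for SNORD100 in RPS12, -0.63 for SNORD73B in RPS3A and -0.51 for SNORD72 in RPL37. Adjusted p values of these in limma lay between 0.0597 for SNORD100 and 0.491 for SNORD73B.

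Genes of nucleolar and ribosome assembly proteins hosted 15 members. All 15 had a log2 fold change below 0, with a median of -0.76 and a range of -2.06 to -0.23, and 8 were called lower. Their 7 hosts were all called lower, with fold changes between -0.79 and -0.28. The host set is PPAN, GNL3, WDR43, TAF1D, TSR1, NCL and NOP58. The call of TSR1 was lost without arsenic trioxide library 1 (limma adjusted p 0.0507) or control library 3 (0.0523).

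SNORD20, which guides methylation of the small subunit rRNA, lies in NCL, the gene of the nucleolar protein nucleolin. It had 34.2, 43.1 and 46.6 RPKM in arsenic trioxide libraries and 85.4, 73.6 and 75.2 RPKM in control libraries, with no overlap. The fold change was -0.91 ± 0.12 in log2 with a limma adjusted p of 0.00307. NCL itself had 134, 151 and 142 RPKM in arsenic trioxide libraries and 179, 170 and 192 RPKM in control libraries, a smaller log2 fold change of -0.34 (adjusted p 0.0152).

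GNL3, which encodes nucleostemin, holds 3 members and fell, with 48.6, 50.5 and 44.3 RPKM in arsenic trioxide libraries and 76.2, 81.7 and 82.5 RPKM in control libraries (log2 fold change -0.73, limma adjusted p 0.000897). SNORD69, a guide for the large subunit rRNA, had 25.6, 31.9 and 29.5 RPKM in arsenic trioxide libraries and 48.2, 47.6 and 42.5 RPKM in control libraries. Its log2 fold change of -0.65 (limma adjusted p 0.00383) was close to that of the host. SNORD19C was called with -0.76 and an adjusted p of 0.0388, a call lost in 5 of the 6 fits that left out a library and kept without arsenic trioxide library 2 (0.00223). In the other 5 fits its adjusted p lay between 0.0846 without control library 1 and 0.11 without arsenic trioxide library 1. SNORD19 had a log2 fold change of -1.0 that was not called (0.128).

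WDR43, a factor of the small subunit processome, holds SNORD92, SNORD53 and SNORD53B. The host had 54.3, 55.5 and 49.7 RPKM in arsenic trioxide libraries and 85.9, 74.8 and 81.2 RPKM in control libraries (log2 fold change -0.59, limma adjusted p 0.00235). Of its 3 snoRNAs 1 was called, SNORD92 with -0.94 (adjusted p 0.0242), and this call was lost without arsenic trioxide library 1 (0.0726) or 3 (0.0684) and without control library 1 (0.073) or 2 (0.0641). SNORD53 and SNORD53B had log2 fold changes of -0.41 (0.07) and -0.87 (0.126).

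NOP58 encodes a core protein of the box C/D particle and carries 3 snoRNAs in its own introns. SNORD11, which guides methylation of the small subunit rRNA, had 58.2, 47.2 and 52.5 RPKM in arsenic trioxide libraries and 60.7, 83.6 and 82.1 RPKM in control libraries. The groups were separate by a narrow gap. Its log2 fold change was -0.50 with a limma adjusted p of 0.0357, a call kept without control library 1 (0.0101) and lost without each other library (0.0501 without arsenic trioxide library 1, and 0.0823 to 0.105 in the other 4 fits). SNORD11B and SNORD70 were not called, at -0.23 and -0.24. NOP58 itself had a log2 fold change of -0.28 (adjusted p 0.0323), which was lost without arsenic trioxide library 1 (0.0862) or 3 (0.0613) and without control library 1 (0.088) or 3 (0.0884).

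The lowest fold changes of all members were those of SNORD105 and SNORD105B in PPAN, which encodes a large subunit assembly factor, and rest on few reads. SNORD105, a guide for the small subunit rRNA, had 3, 2 and 1 reads in arsenic trioxide libraries and 21, 8 and 13 reads in control libraries. SNORD105B had 1, 1 and 4 reads in arsenic trioxide libraries and 13, 11 and 11 reads in control libraries. In neither did the groups overlap, and the limma adjusted p values were 0.00568 and 0.00457, with 0.0101 and 0.009 in limma-voom on the reads. PPAN had 3.02, 2.5 and 3.31 RPKM in arsenic trioxide libraries and 6.88, 4.56 and 6.11 RPKM in control libraries. Elsewhere in this kind, SNORD6 in TAF1D, a subunit of the RNA polymerase I initiation factor, was called at -0.55 (limma adjusted p 0.0438), while SNORD91A and SNORD91B in the small subunit factor TSR1 were not, at -0.79 and -0.28. The call of SNORD6 was kept without arsenic trioxide library 2 (0.0491) and lost without each other library, with adjusted p values between 0.0522 without control library 2 and 0.122 without control library 3.

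Noncoding genes hosted 6 members, of which 4 were called lower, with a median log2 fold change of -0.54 over the 6. SNORD12B and SNORD12C, which guide methylation of the large subunit rRNA, lie in ZFAS1. SNORD12B had 34.0, 38.9 and 40.5 RPKM in arsenic trioxide libraries and 57.7, 53.9 and 54.4 RPKM in control libraries. SNORD12C had 31.7, 32.4 and 35.8 RPKM in arsenic trioxide libraries and 48.4, 53.4 and 44.7 RPKM in control libraries. Both pairs of groups were separate, both log2 fold changes were -0.54, and the limma adjusted p values were 0.00369 and 0.00487. In limma-voom the adjusted p values were 0.0503 for SNORD12B and 0.0676 for SNORD12C. ZFAS1 was not called, with 20.9, 23.0 and 23.2 RPKM in arsenic trioxide libraries and 30.6, 27.1 and 24.7 RPKM in control libraries (log2 fold change -0.28, adjusted p 0.0584).

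SNORD93, a guide for the small subunit rRNA that is described here for its host, had 3.64, 19.8 and 17.8 RPKM in arsenic trioxide libraries and 46.8, 44.0 and 35.3 RPKM in control libraries. Arsenic trioxide library 1 was far below the other treated libraries. The log2 fold change was -1.81 ± 0.54 with a limma adjusted p of 0.0484, and 0.0074 in limma-voom. The call was kept without arsenic trioxide library 1 (0.00681) or 2 (0.0439), and lost without arsenic trioxide library 3 (0.0535) and without control library 1 (0.116), 2 (0.114) or 3 (0.0878). Its host SNHG26, listed in the table under the symbol AC005682.5, had 10.0, 10.5 and 13.6 RPKM in arsenic trioxide libraries and 36.9, 27.1 and 27.1 RPKM in control libraries (log2 fold change -1.34, adjusted p 0.00192).

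In SNHG16, SNORD1B was called at -0.79 (limma adjusted p 0.0286) while the host had -0.08 (0.328). That call was kept without arsenic trioxide library 3 (0.019) or control library 3 (0.0246) and lost without the other 4 libraries, at 0.0812 to 0.083. SNORD99 in SNHG12 had 15.1, 18.5 and 17.8 RPKM in arsenic trioxide libraries and 19.4, 20.2 and 12.6 RPKM in control libraries, overlapping groups with a log2 fold change of 0.00. SNHG12 had 4.2, 4.64 and 7.4 RPKM in arsenic trioxide libraries and 12.3, 10.6 and 7.85 RPKM in control libraries (-0.83, adjusted p 0.0342). The SNHG12 call was kept without arsenic trioxide library 3 (0.0156) or control library 3 (0.0334) and lost without the other 4 libraries, at 0.0933 to 0.0975.

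**Figure D2:**
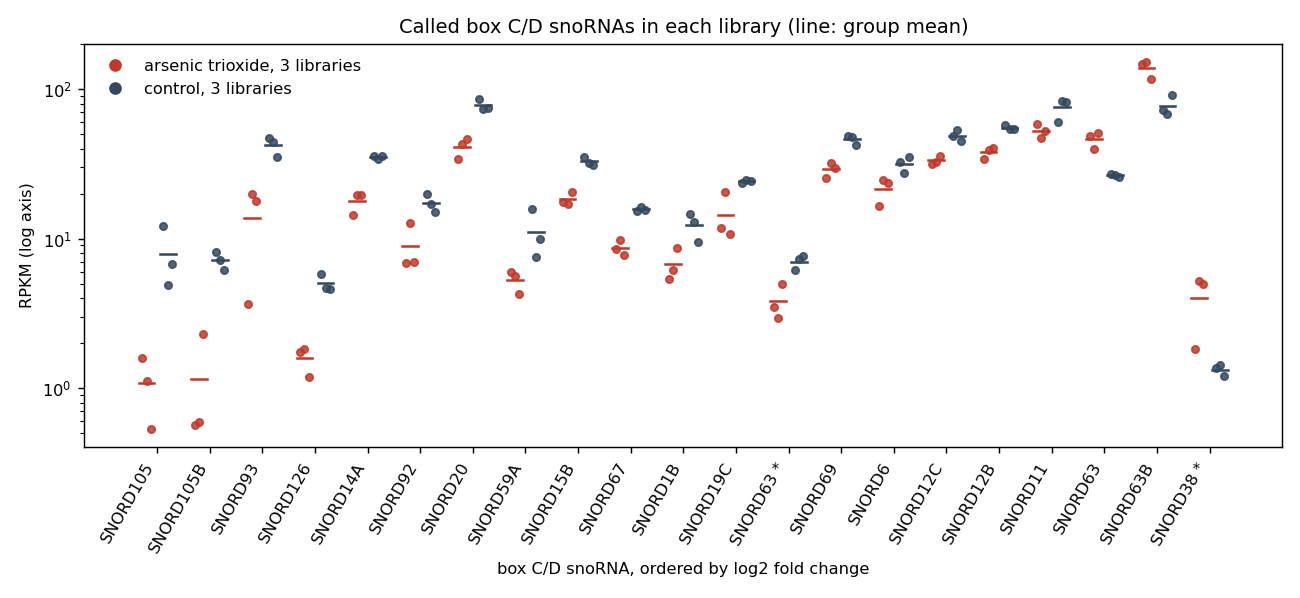
RPKM on a log axis (y) in each of the 3 arsenic trioxide and 3 control libraries for the 21 called box C/D snoRNAs (x axis, ordered by log2 fold change), with a line at each group mean and an asterisk for rows with no RefSeq box C/D gene. The 18 lower members are on the left and the 3 higher ones, SNORD63, SNORD63B and SNORD38 on chromosome 19, on the right.

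Genes of the HSP70 chaperone family held 3 members, and their 2 hosts were both called higher. HSPA9 encodes the mitochondrial HSP70. It had 232, 240 and 235 RPKM in arsenic trioxide libraries and 188, 180 and 186 RPKM in control libraries (log2 fold change 0.35, limma adjusted p 0.00448). SNORD63, which guides methylation of the large subunit rRNA, had 48.8, 39.6 and 50.9 RPKM in arsenic trioxide libraries and 26.9, 26.6 and 26.0 RPKM in control libraries. SNORD63B had 146, 151 and 116 RPKM in arsenic trioxide libraries and 72.1, 68.6 and 91.6 RPKM in control libraries. Both rose without overlap, by 0.78 ± 0.10 and 0.83 ± 0.14 in log2, with limma adjusted p values of 0.00246 and 0.00691. Limma-voom gave 0.0286 for SNORD63 and 0.00506 for SNORD63B. An exon of a retained-intron model of HSPA9 covers SNORD63B and part of SNORD63 in GENCODE 29, so reads of such a transcript would be counted in these rows too.

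SNORD14E, the U14 copy in HSPA8, was not called, while its host was called higher. HSPA8, the constitutive HSP70, had 836, 864 and 868 RPKM in arsenic trioxide libraries and 737, 595 and 554 RPKM in control libraries (log2 fold change 0.46, limma adjusted p 0.0282). This call was kept without control library 1 (0.00891) and lost without each other library, at 0.0666 to 0.0946. SNORD14E had 58.0, 71.1 and 64.8 RPKM in arsenic trioxide libraries and 71.1, 117 and 78.1 RPKM in control libraries. The highest treated library was level with the lowest control library, and the log2 fold change of -0.42 ± 0.18 was not called (adjusted p 0.135). SNORD14B to SNORD14D and SNORD22 are not among the 64 SNORD rows and so were not analysed here. The same holds for SNORD32A, SNORD33, SNORD34 and SNORD35A of RPL13A.

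Other protein-coding genes held 24 members. Of these 3 were called lower and none higher, with a median of -0.34 and a range of -1.22 to 0.72. In limma-voom 0 of the 24 were called. Of their 18 tested hosts, 5 were called lower (MED24, PRPF39, PTCD3, SF3B3 and SNX5) and 2 higher (AP1G1 and DCP1A). Among all genes tested, 13.4% were called lower and 12.0% higher. Of these host calls, only those of PRPF39 and PTCD3 were kept whichever library was left out. No member in a called host of this kind was itself called. SNORD67, a guide for the U6 spliceosomal RNA, lies in the microtubule gene CKAP5 and had 8.48, 9.78 and 7.79 RPKM in arsenic trioxide libraries and 15.2, 16.3 and 15.5 RPKM in control libraries. Its groups were tight and separate (log2 fold change -0.79, limma adjusted p 0.00207, limma-voom 0.0547), and CKAP5 had -0.13 (0.11). SNORD126 in CCNB1IP1 had 3, 3 and 2 reads in arsenic trioxide libraries and 9, 7 and 8 reads in control libraries (log2 fold change -1.22, limma adjusted p 0.00262, limma-voom 0.0679). Its host had a log2 fold change of 0.24 (0.179).

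SNORD59A in ATP5F1B, a subunit gene of the mitochondrial ATP synthase, was the third call of this kind, at -0.90 (limma adjusted p 0.0364). It was kept without control library 2 (0.0234) and lost without each other library, between 0.0558 without control library 1 and 0.0993 without arsenic trioxide library 3. SNORD117 in the RNA helicase gene DDX39B, among the 8 members with the highest RPKM, had 34.2, 45.3 and 29.9 RPKM in arsenic trioxide libraries and 34.5, 37.4 and 51.2 RPKM in control libraries. The groups overlapped and it was not called (-0.17, adjusted p 0.556). SNORD62A and SNORD62B in PRRC2B have the same annotated sequence (100% identity), so how reads were divided between them is uncertain. They averaged 5.33 ± 3.30 and 22.6 ± 2.32 RPKM in arsenic trioxide libraries and 7.01 ± 2.01 and 30.6 ± 5.93 RPKM in control libraries (SD, n = 3 each), and neither was called.

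No listed gene on the same strand held 7 members, which had a median log2 fold change of 0.00. Among them are the U3 genes, which carry their own promoters. SNORD3A had 10.6, 25.4 and 18.9 RPKM in arsenic trioxide libraries and 13.7, 14.0 and 18 RPKM in control libraries. SNORD3B-2 had 9.47, 11.9 and 8.11 RPKM in arsenic trioxide libraries and 6.70, 9.34 and 8.33 RPKM in control libraries. Both overlapped between groups, with log2 fold changes of 0.18 and 0.24 and limma adjusted p values of 0.673 and 0.306. Without arsenic trioxide library 2 the value of SNORD3A was -0.08. The annotated transcripts are 699 and 791 bases long, and the U3 genes are near-identical copies, so reads between them are uncertain. SNORD3C, SNORD3D, SNORD118 and SNORD13 are not among the 64 SNORD rows and so were not analysed here.

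Of the remaining rows without a host, SNORD63 on chromosome 17 was called lower (-0.75, limma adjusted p 0.0191) and SNORD38 on chromosome 19 higher (1.02, 0.0456). SNORD38 on chromosome 19 had 3, 8 and 8 reads in arsenic trioxide libraries and 2, 2 and 2 reads in control libraries. Its call was kept without arsenic trioxide library 1 (0.00536) and lost without each other library, at 0.0975 to 0.127. The call of SNORD63 on chromosome 17 was lost without arsenic trioxide library 1 (0.0599) and without control library 2 (0.0601) or 3 (0.0636). Neither position has a RefSeq box C/D gene, and each lies opposite a listed gene, FZR1 for SNORD38 and AC104984.4 for SNORD63. Over the 9 rows with no RefSeq gene the median log2 fold change was -0.15, against -0.5 over the 54 others.

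Members and hosts were then set side by side. In 54 pairs with a tested host, the log2 fold change of the snoRNA was below that of its host in 38 and above it in 16, with a median difference of -0.26. Across these pairs Pearson's r was 0.47 and Spearman's rho 0.21, given as a description because pairs share libraries and some share a host. Both members of a pair had a fold change below 0 in 37 pairs, and the signs were opposite in 14. Of the 17 called-lower members with a tested host, 9 had a host called lower and 8 a host that was not called.

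**Figure D3:**
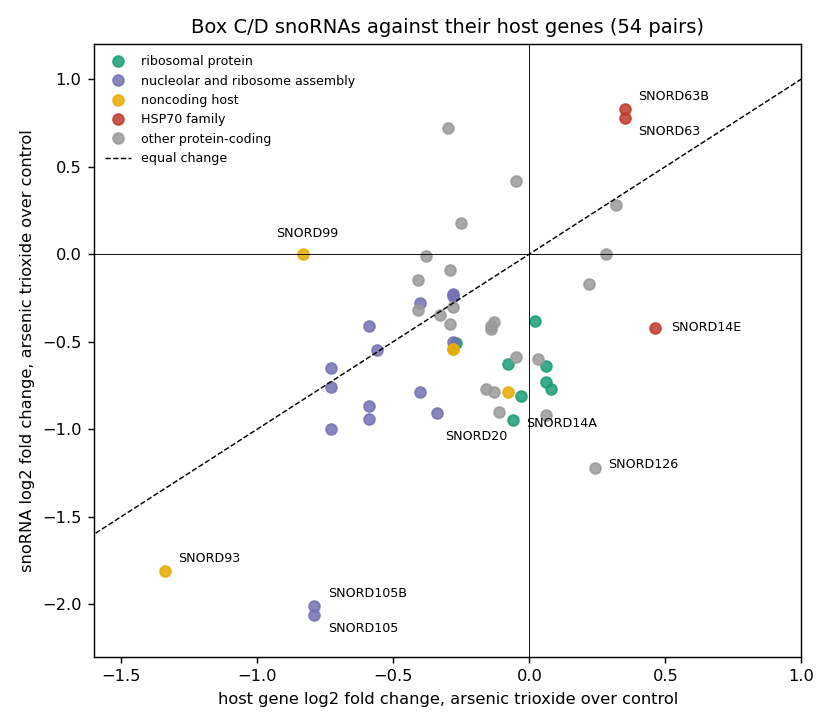
Log2 fold change (arsenic trioxide over control) of each snoRNA (y axis) against that of its host gene (x axis) for 54 pairs, coloured by kind of host, with a dashed line of equal change. Members of ribosomal protein genes lie between -0.95 and -0.38 on y while their hosts lie between -0.27 and 0.08 on x, and 38 of the 54 points are below the line.

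Reads on the snoRNAs per 1000 reads on their hosts were computed in each library, counting each host once. Over all 56 members with a host the values were 7.33, 7.72 and 7.29 in arsenic trioxide libraries and 8.82, 9.49 and 9.23 in control libraries. All treated libraries were lower, a log2 difference of -0.30 (a difference of -18.8%), with an exact two-sided permutation p of 0.1, the smallest this design allows. HSPA8, the host with the most reads, averaged 76700 host reads per library and HSPA9 averaged 21300. Both were called higher and together hold 3 members, so their rise is in the denominator. The ratio without them was not computed. In ribosomal protein genes the values were 3.51, 3.13 and 3.39 in arsenic trioxide libraries and 5.14, 5.21 and 5.87 in control libraries, a log2 difference of -0.69 (-38.1%, exact p 0.1).

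In noncoding hosts there were 19.9, 24.3 and 25.4 snoRNA reads per 1000 host reads in arsenic trioxide libraries and 30.2, 30.9 and 28.1 in control libraries (log2 difference -0.37, exact p 0.1). SNHG16 averaged 7980 of these host reads per library, against 1180 for the next host, ZFAS1. Its 1 member, SNORD1B, averaged 16.8 reads. This pooled ratio thus rests mostly on SNHG16, and a ratio without SNHG16 was not computed. The log2 fold change of the snoRNA minus that of its host was -0.72 for SNORD1B, -0.26 for SNORD12B and SNORD12C, -0.47 for SNORD93 and 0.83 for SNORD99. In nucleolar and ribosome assembly hosts there were 11.8, 12.4 and 10.8 in arsenic trioxide libraries and 12.9, 14.0 and 12.7 in control libraries (-0.18, exact p 0.1). NCL averaged 23700 of these host reads per library, against 7820 for the next host, TAF1D, and holds 1 member, SNORD20. A ratio without NCL was not computed, so this difference cannot be read as one of every host of the kind. With their hosts pooled, the groups did not overlap in these kinds. They overlapped in HSP70 hosts, with 3.58, 3.62 and 3.21 in arsenic trioxide libraries and 2.89, 4.44 and 4.15 in control libraries (-0.12, exact p 0.6). This HSP70 value pools opposite differences. The log2 fold change of the snoRNA minus that of its host was 0.43 for SNORD63, 0.47 for SNORD63B and -0.88 for SNORD14E. The groups also overlapped in the other protein-coding hosts, with 11.0, 12.0 and 11.5 in arsenic trioxide libraries and 11.9, 11.5 and 11.0 in control libraries (0.00, exact p 0.9). SNORD17 holds 62.6% of the member reads of this last kind. Without SNORD17 and its host, a setting chosen after seeing the data, there were 3.73, 4.61 and 4.37 in arsenic trioxide libraries and 5.15, 4.66 and 4.71 in control libraries, without overlap (-0.20, exact p 0.1). Differences between kinds of host were not tested.

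**Figure D4:**
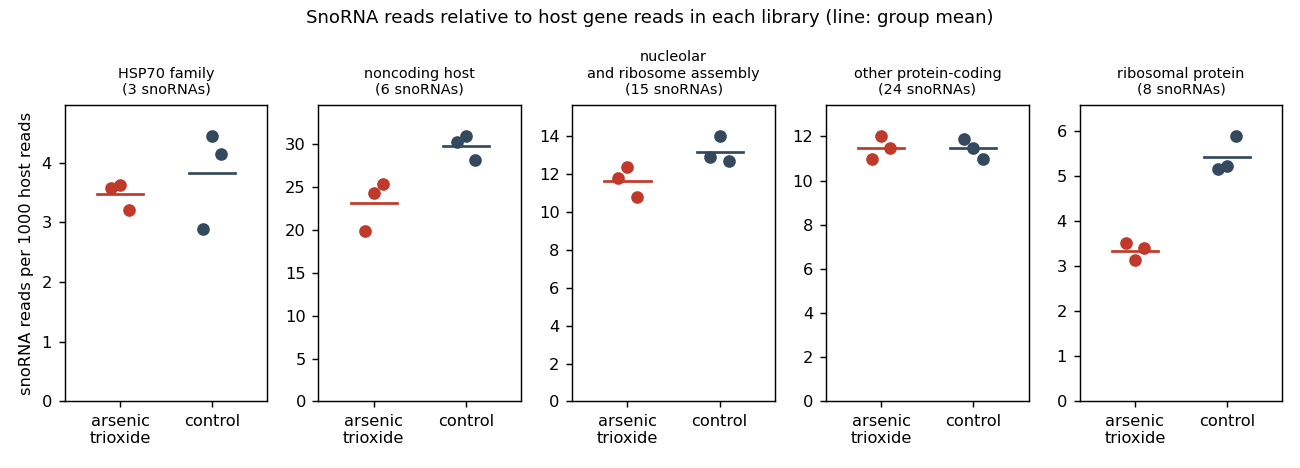
SnoRNA reads per 1000 host gene reads (y axis, each panel from 0) in each of the 3 arsenic trioxide and 3 control libraries, by kind of host, with a line at each group mean. In ribosomal protein hosts the treated libraries sit at 3.13 to 3.51 and the control libraries at 5.14 to 5.87.

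Genes for building and trimming box C/D snoRNAs, and noncoding genes that host snoRNAs, were read from 4 lists at the level of RNA. No protein was measured. Their counts stand beside 13.4% lower and 12.0% higher among all genes tested. Of the 4 core protein genes, 3 fell and none rose. NOP56 fell to 54.8 ± 0.1 RPKM in arsenic trioxide libraries, against 76.9 ± 7.87 RPKM in control libraries (SD, n = 3 each, log2 fold change -0.48, limma adjusted p 0.00589). SNU13 averaged 33.4 ± 3.32 RPKM in arsenic trioxide and 44.3 ± 1.54 RPKM in control libraries (-0.40, limma adjusted p 0.0121), and NOP58 is given above. FBL, which encodes fibrillarin, had 68.6 ± 6.23 RPKM in arsenic trioxide and 74.6 ± 1.83 RPKM in control libraries and was not called (-0.12, 0.257).

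Of 12 assembly genes, 4 fell and none rose, with a median log2 fold change of -0.08. NOLC1, the nucleolar chaperone that binds snoRNPs, fell to 110 ± 3.39 RPKM in arsenic trioxide libraries, against 164 ± 6.45 RPKM in control libraries (-0.57, limma adjusted p 0.00113). NUFIP1, a snoRNP assembly factor, fell by 0.49 in log2 (0.0114). The helicase gene RUVBL1 fell by 0.36 (0.0265), and the cap-binding gene NCBP2 fell by 0.21 (0.0487). The call of RUVBL1 was lost without control library 1 (0.0612), 2 (0.0703) or 3 (0.0803), and that of NCBP2 was kept without arsenic trioxide library 2 (0.0338) and lost without each other library, at 0.0997 to 0.133.

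Of 19 genes of snoRNA processing, 9 fell and 3 rose, with a median of -0.13, and the count that rose is near the background. DBR1, the enzyme that opens intron lariats, fell to 8.97 ± 0.988 RPKM in arsenic trioxide libraries, against 14.7 ± 1.4 RPKM in control libraries (SD, n = 3 each, log2 fold change -0.65, limma adjusted p 0.00553). The poly(A) polymerase gene PAPD7 fell by 0.56 (0.00127), and the exosome genes EXOSC7 and EXOSC2 fell by 0.53 (0.00285) and 0.45 (0.00304). The 3 higher genes were the exonuclease gene XRN1 and the exosome genes EXOSC8 and EXOSC6, with log2 fold changes of 0.43, 0.29 and 0.43. The call of EXOSC8 was lost without arsenic trioxide library 2 (0.0507) and without control library 2 (0.0571) or 3 (0.0574). The call of EXOSC6 was kept without control library 1 (0.018) and lost without each other library, at 0.0621 to 0.115.

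Of 19 tested noncoding host genes, TAF1D counted among them although it encodes a protein, 8 fell and none rose. SNHG26, listed under AC005682.5 and given above as lower, is not in this list. SNHG3 fell to 43.0 ± 2.25 RPKM in arsenic trioxide libraries, against 77.1 ± 0.704 RPKM in control libraries (-0.83, limma adjusted p 0.000368). SNHG4, SNHG19 and SNHG15 fell by 1.23 (0.00037), 1.16 (0.00178) and 0.70 (0.0048). GAS5 and SNHG1, hosts of many snoRNAs that were named after their values were seen, were not called, at -0.18 (0.204) and -0.07 (0.711).

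Read depth differed widely among the calls. The 12 members called by limma-trend alone had between 4.17 and 114 mean reads per library. SNORD105 and SNORD105B were called by both with 8.0 and 6.83 mean reads. The median SE of the log2 fold change was 0.22 over the members and 0.13 over all genes tested, so differences of small size were not detectable at this depth for many members.

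**Figure D5:**
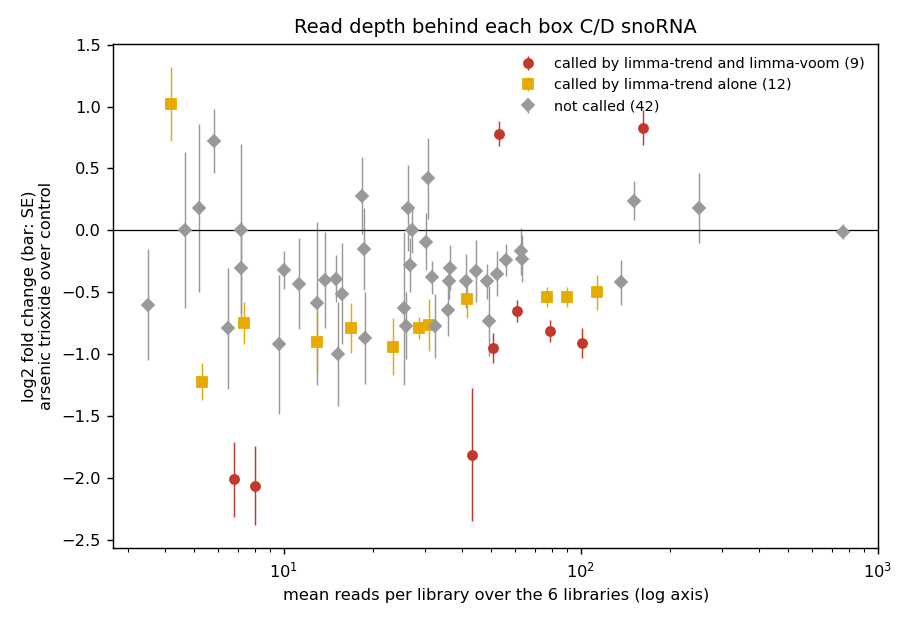
Log2 fold change (y axis, arsenic trioxide over control, bar: SE) of the 63 box C/D snoRNAs against mean reads per library over the 6 libraries (x axis, log scale), split by which model called them. The 9 members called by both models include SNORD105 and SNORD105B at the left and SNORD63B at 162 reads, and SNORD17 at 768 reads lies at -0.01.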

How the data were processed

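Total RNA of NB4 cells, 3 libraries with arsenic trioxide for 6 h and 3 control libraries, was depleted of rRNA and made into unstranded libraries, per the labels' protocols. HISAT2 2.1.0, HTSeq, DESeq2 and hg38 are named in the submitters' processing notes. The authors removed duplicates, per the file headers. This can hold down counts on short genes, an effect that was not tested. The authors deposited RPKM of 23858 genes. Their table also holds, per the file headers, a mean normalized signal, a log2 fold change with its error, a test score, and p-values with adjusted p-values. These were quoted only as the authors' values, except that the mean settled exon lengths. The direction of their fold change was read from the values.

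Whole reads were recovered from RPKM with GENCODE 29 exon lengths and 1 total per library. Within 0.01 reads, 93.0% of genes gave 6 whole numbers from the annotated length, all 63 members among them, and 100% did once the deposited mean had settled the length. The lengths behind HSPA9 (4751 bases) and CHD8 (9781 bases) differ from GENCODE 29 (8254 and 20953), so the authors' annotation was not identical. No gene under 21 reads in sum is listed.

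The 16803 genes whose mean reached 1 RPKM were compared on log2(RPKM + 1) by limma 3.58.1 under R 4.3.3 (trend mode, treatment as the only term) with Benjamini-Hochberg adjustment over all of them. Single values per library were compared with exact two-sided permutation tests over the 20 assignments. The host is the listed gene on the same strand whose GENCODE 29 span holds the snoRNA, with the highest RPKM where several do. Alternatives were other scalings, pseudocounts of 0.1 and 5, other filters, limma-voom on recovered reads, a replicate term and each library left out. The scripts were tested on simulated data. Members named in full are the 8 with the highest mean RPKM, up to 10 called in each direction by smallest p, the U3 and U14 families, those beside the level threshold and those of hosts with at least 3 members. Others were named after their values were seen. The members and gene lists were chosen with earlier results of these data known. The values of 1 member with its host gene, and the sequence of another, are not reported here.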

Additional observations from a re-analysis of the deposited data

How the results depend on the processing

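The 18 lower and 3 higher calls among the members became 7 and 2 in limma-voom on recovered reads, and 15 and 2 with the replicate block. Deviations of same-numbered libraries correlated at -0.0852, 0.148 and -0.0829, and those of differently numbered ones at -0.158 to 0.221. No pairing by replicate number was seen, but with 3 libraries per group these values cannot exclude it. With the block 4 snoRNP core and assembly genes were lower, against 7 without it, and 2 hosts higher, against 4. Leaving out 1 library gave 12 to 18 lower and 2 to 4 higher members, 10 to 14 lower and 1 to 4 higher hosts, and 4 to 7 lower and 0 to 0 higher snoRNP genes, with fewer libraries in each fit. Upper quartile scaling called 1 snoRNP gene higher, against 0. The members' median was -0.32 with a pseudocount of 5, which shrinks low values by construction, and -0.49 to -0.42 without 1 library. Leave-one-out ranges were -0.29 to -0.18 for the share of reads and -0.33 to -0.28 for reads over host reads (log2). That ratio was -0.38 without the 3 members on host exons, which leaves 1 member higher, and -0.42 without SNORD17, an alternative chosen after seeing the data. Of 262 alternative values for 19 named members, 242 kept their side of the threshold, 20 lost the call and 0 called values changed sign. Among members never called, 5 values changed sign: SNORD17 was 0.03 with upper quartile scaling and 0.01 without arsenic trioxide library 3 or control library 1 or 2, against -0.01, and SNORD3A was -0.08 without arsenic trioxide library 2, against 0.18. The cause of these shifts was not tested beyond the constructions named. Depth limits 13 members with a mean under 10 reads.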
